A study of Mus musculus with 117 samples.

Results

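The 10 genes described here encode the machinery of inflammasomes and pyroptosis, and they were taken by name as a fixed list, with Entrez identifiers matched to mouse symbols, from 27179 genes in every count file. They are the sensors Nlrp3, Nlrc4 and Aim2, the adaptor Pycard, the caspases Casp1, Casp4 and Casp8, the pore-forming Gsdmd and the cytokines Il1b and Il18. RNA was sequenced from mouse spinal cord carrying RiboTag, a haemagglutinin-tagged ribosomal protein that a Cre recombinase switches on, so that immunoprecipitation pulls down ribosomes of the Cre-expressing cells with their mRNA. The 70 immunoprecipitated libraries are called astrocyte libraries and the 47 libraries made from the supernatant of the same pull-downs are called flow-through. All mice were on a C57BL/6 background and all carried RiboTag and a Cre. In Aldh1l1-CreERT2 -RiboTag mice the Cre is driven by the Aldh1l1 promoter of astrocytes and needs tamoxifen. Their astrocyte and flow-through libraries came from young adult females that were uninjured (n = 4) or at 2 d (n = 5), 5, 14, 28, 42 and 70 d (n = 4 each) after a crush spinal cord injury (SCI), and from males at 5 and 14 d (n = 4 each). Replicate 4 of the 5 d female flow-through libraries carries a male label, whereas the astrocyte library of the same number carries a female label. This flow-through library was kept with the females. In 73.12 GFAP Cre -RiboTag mice, called mGfap, the Cre is constitutive under a Gfap promoter and so marks every cell in which that promoter was ever active. Their libraries came from 5 females at 14 d after SCI, from uninjured mice at postnatal day P63 (3 males and 2 females) and, as astrocyte libraries only, from uninjured mice at P0 (n = 4), P3 (n = 3), P7 (n = 3), P14 (n = 5), P21 (n = 4) and P35 (n = 4). Labels give no age for the Aldh1l1 mice or the injured mGfap females, which were young adults by the study's methods. Tissue was a short block around the lesion core, and mice were perfused before dissection to clear blood.

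An inflammasome forms when a cytosolic sensor meets a danger or microbial signal and gathers Pycard (ASC), the adaptor that joins the sensor to caspase-1. Active caspase-1 cuts the precursors of IL-1β and IL-18 and cuts gasdermin D, the product of Gsdmd, whose freed end forms membrane pores through which the cytokines leave and the cell may lyse, a death called pyroptosis. The Casp4 product cuts gasdermin D on sensing bacterial lipopolysaccharide in the cytosol, and caspase-8 links these complexes to death receptors and apoptosis. In the central nervous system these genes are best known from microglia and from blood-borne macrophages and neutrophils, and many of them are transcribed more strongly once NF-kB or interferon signalling has primed the cell.

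On GRCm38.p6, the RefSeq release of the mm10 assembly that the counts use, Casp1 (chr9:5298517-5307281) and Casp4 (chr9:5308849-5336791) are neighbours on the forward strand of chromosome 9, which also carries Il18 (chr9:50554700-50581841). Aim2 (chr1:173349547-173466040) and Casp8 (chr1:58795233-58847503) lie on chromosome 1. Nlrp3 is at chr11:59541569-59566955, Nlrc4 at chr17:74426255-74459144, Pycard at chr7:127991373-127993867, Gsdmd at chr15:75862144-75867408 and Il1b at chr2:129364569-129371164. Reads were counted over annotated exons of these genes.

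Promoter sequence was taken from RefSeq for the 250 bases upstream of each annotated start, and 9 of the 10 genes had an entry, with 11 windows in all. Gsdmd had none. Each window was searched on both strands for 4 motifs that priming pathways use: the NF-kB consensus, the interferon response core (ISRE, which is GAAA, any 2 bases and GAAA again), the STAT motif TTCNNNGAA (GAS) and the myeloid PU.1 motif GAGGAAGT. Casp4 and Nlrp3 were the genes with an NF-kB match. In Casp4 one pair of overlapping matches lay 93 to 83 bases before the start and another lay on the opposite strand 39 to 30 bases before it, and in Nlrp3 the match lay 186 to 177 bases before the first start. Aim2 held a PU.1 match 113 to 106 bases before its start and Pycard one on the opposite strand at 44 to 37 bases. The windows of Nlrc4, Casp1, Casp8, Il1b and Il18 held none of these letters. Over 32851 promoter windows of the same length, 7.25% held the NF-kB consensus, 2.98% the ISRE core, 7.02% GAS and 2.44% PU.1. The windows of Casp4 and Nlrp3 are shown because these genes rose most from their uninjured levels among the caspases and the sensors at 2 d, and that of Il18 because it fell. Capitals mark the matches.
Casp4 promoter, GRCm38.p6 chr9:5308599-5308848, + strand: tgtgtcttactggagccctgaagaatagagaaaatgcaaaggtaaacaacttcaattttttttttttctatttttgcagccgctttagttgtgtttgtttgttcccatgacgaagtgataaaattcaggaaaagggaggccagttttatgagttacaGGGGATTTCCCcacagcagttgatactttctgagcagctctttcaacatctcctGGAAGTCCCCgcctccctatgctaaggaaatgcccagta
Nlrp3 promoter, GRCm38.p6 chr11:59541319-59541568, + strand: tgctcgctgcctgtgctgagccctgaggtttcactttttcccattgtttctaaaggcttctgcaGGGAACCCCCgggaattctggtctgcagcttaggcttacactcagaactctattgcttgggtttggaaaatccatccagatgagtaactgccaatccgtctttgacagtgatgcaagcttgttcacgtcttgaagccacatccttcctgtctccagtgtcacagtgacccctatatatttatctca
Il18 promoter, GRCm38.p6 chr9:50554450-50554699, + strand: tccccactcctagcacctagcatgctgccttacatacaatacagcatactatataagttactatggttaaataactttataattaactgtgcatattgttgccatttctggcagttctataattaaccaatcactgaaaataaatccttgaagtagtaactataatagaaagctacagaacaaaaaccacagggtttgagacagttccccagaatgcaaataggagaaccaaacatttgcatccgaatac

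Libraries held 40710428 to 136008399 counted reads (median 95831369), those of the 2 d flow-through being among the shallowest. Markers of the labelled cell type were present. Summed over 12 astrocyte markers, none at 0, uninjured Aldh1l1 astrocyte libraries lay between 54200 and 64500 CPM (counts scaled to one common library size) and flow-through libraries between 2010 and 2450 CPM. Markers best known from other cells were also present. The sum of 12 pan-myeloid markers, such as Ptprc, Csf1r, Aif1 and Tyrobp and again none at 0, was 45.8 to 71 CPM in uninjured Aldh1l1 astrocyte libraries and had a median of 364 CPM in flow-through. It reached 7450 to 9170 CPM in astrocyte libraries at 5 d, against 3670 to 4480 CPM in flow-through. All 12 pan-myeloid markers were higher than in uninjured astrocyte libraries at each of the 6 times. The study reports some of them, such as Tyrobp, Spi1, Ctss and Fcer1g, as also expressed by reactive astrocytes, and Tyrobp protein in part of the border astrocytes. The source of these transcripts and the part of myeloid cells in the changes below were not tested. In bulk samples fewer cells of a type and less RNA per cell cannot be told apart.

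In uninjured astrocytes 2 of the genes stood out. Per length, as CPM for each kilobase of exon (RPKM), Il18 was at 23 ± 2.45 (SD, n = 4) and Casp1 at 5.84 ± 0.652, followed by Pycard at 1.61 ± 0.237 and Casp8 at 1.06 ± 0.302. Casp8 and Gsdmd, at 0.747 ± 0.362 RPKM, did not differ beyond their spread. The remaining genes, Il1b, Nlrp3, Casp4, Aim2 and Nlrc4, lay between 0.156 ± 0.108 and 0.0256 ± 0.0162 RPKM, and the means of Nlrp3 and Casp4 were closer than their SDs. In uninjured flow-through Il18 was again first, at 7.04 ± 0.257 RPKM, but Gsdmd (1.63 ± 0.355) and Pycard (1.28 ± 0.287) came next and Casp1 (0.923 ± 0.161) stood behind Casp8, at 0.934 ± 0.21. By 5 d after SCI the order had changed. Pycard led at 36.6 ± 5.31 RPKM, Casp8 followed at 15.5 ± 1.58, Casp1 and Gsdmd lay at 12.6 ± 0.171 and 11.5 ± 1.5, and Il18 was next at 9.72 ± 1.39. Nlrc4 stayed lowest at 0.413 ± 0.0704. The values of Aim2 (1.08 ± 0.1 RPKM at 5 d) are uncertain on this scale because its annotated exons add up to 10606 bases and its annotated span runs over a neighbouring gene.

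After SCI, 9 of the 10 genes were higher in Aldh1l1 astrocyte libraries at every one of the 6 times and Il18 was lower at every one. All 10 passed the filter on low counts. Of all genes tested, 60.1%, 56.8%, 47.3%, 41.9%, 43.3% and 45.3% were called at the 6 times in order of time, and 30.2%, 28.7%, 24.5%, 22.8%, 23.3% and 23.9% were called higher. The median log2 fold change of the 10 genes was 3.22 at 2 d, 4.25 at 5 d and 2.24 at 70 d, while that of all genes stayed between −0.04 and 0.05. The 6 comparisons share the 4 uninjured mice. Calls rest on the quasi-likelihood test of edgeR at a Benjamini-Hochberg adjusted p below 0.01, and values after ± for a log2 fold change are standard errors.

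Of the sensors, Nlrp3, which answers many danger signals, was at 0.391, 0.401, 0.155 and 0.316 CPM in the 4 uninjured astrocyte libraries. At 2 d it was at 15.3, 4.71, 6.48, 7.3 and 18 CPM, and at 70 d at 2.49, 4.24, 2.96 and 3.56 CPM. No injured library overlapped the uninjured ones, and libraries 1 and 5 stood highest at 2 d. The log2 fold change was 5.05 ± 0.45 at 2 d (adjusted p = 1.33e-10), 5.06 ± 0.46 at 14 d and 3.41 ± 0.44 at 70 d. Aim2, a sensor of cytosolic DNA, was at 0.145 to 0.402 CPM uninjured. It was at 5.35, 2.66, 4.08, 3.86 and 4.13 CPM at 2 d, at 11.9, 10.7, 12.8 and 10.6 CPM at 5 d and at 1.82, 1.39, 3.69 and 2.9 CPM at 70 d, so that its levels stood higher at 5 and 14 d than at 2 d with no overlap. Its log2 fold change was 5.17 ± 0.36 at 14 d. Nlrc4, which works with NAIP proteins that recognise bacterial flagellin and secretion proteins, stayed low. It was at 0.0217 to 0.207 CPM uninjured, 1.5 to 2.21 CPM at 5 d and 0.0916 to 0.925 CPM at 70 d, when it overlapped the uninjured range. Its call at 70 d (2.08 ± 0.57, adjusted p = 0.00299) was lost without uninjured library 2 or 70 d library 3 or 4 (adjusted p = 0.0112 to 0.0214), with the edgeR 4 form (adjusted p = 0.0121) and when the 2 groups were fitted alone (adjusted p = 0.0649).

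Pycard was at 3.22, 3.79, 2.82 and 3.91 CPM in uninjured astrocyte libraries. It rose to 37.8, 23.2, 30.1, 30.1 and 31.5 CPM at 2 d and to 72.2, 80.5, 92.8 and 66.9 CPM at 5 d. By 14 d it lay at 23.2 to 29.4 CPM and by 70 d at 11.2 to 15.8 CPM, still above every uninjured library. Its log2 fold change was 4.50 ± 0.19 at 5 d (adjusted p = 8.96e-18) and 1.98 ± 0.17 at 70 d.

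The caspases followed 3 different courses. Casp1, which cuts the cytokine precursors, was already present uninjured, at 7.81, 8.9, 10.2 and 8.49 CPM, and rose little. It was at 20.5, 21.6, 20.6, 16.6 and 18.5 CPM at 2 d and at 13.1, 9.98, 15.1 and 12.7 CPM at 70 d, when it overlapped the uninjured range. Its log2 fold change stayed between 0.92 and 1.16 from 2 to 42 d and was 0.55 ± 0.17 at 70 d (adjusted p = 0.00608), a call lost without uninjured library 1, 2 or 4 or 70 d library 1, 3 or 4 (adjusted p = 0.011 to 0.0336) and when the 2 groups were fitted alone (adjusted p = 0.0164). Casp4 went from close to nothing to a level that was held. It was at 0.0224, 0.227, 0.0414 and 0.118 CPM uninjured, which were 2, 21, 4 and 9 reads. At 2 d it was at 6.29, 3.65, 5.81, 5.21 and 3.76 CPM, at 28 d at 13.2, 10.8, 5.94 and 9.09 CPM and at 70 d at 5.12, 5.28, 10.4 and 6.77 CPM. Its log2 fold change was 5.59 ± 0.40 at 2 d, 6.58 ± 0.41 at 28 d (adjusted p = 1.62e-13) and 6.09 ± 0.41 at 70 d. Its 70 d libraries thus overlapped those at 5 and 14 d, whereas the 70 d libraries of Pycard, Aim2 and Casp8 lay below every library of those times. Casp8 went from 2.77, 4.57, 2.93 and 2.61 CPM to 43.8, 50, 52 and 41.8 CPM at 5 d and to 9.78, 13.7, 14.4 and 14.4 CPM at 70 d, with log2 fold changes of 3.86 ± 0.18 and 2.05 ± 0.17.

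Gsdmd was at 2.31, 1.86, 1.16 and 0.671 CPM uninjured, at 12.2, 6.73, 11.4, 10.2 and 8.58 CPM at 2 d, at 20.5, 24.1, 27 and 21 CPM at 5 d and at 6.84, 6.09, 10.4 and 7.87 CPM at 70 d. No injured library overlapped the uninjured ones, whereas the 2 d and 70 d libraries overlapped each other. The log2 fold change ran from 3.94 ± 0.28 at 5 d (adjusted p = 1.06e-12) to 2.40 ± 0.27 at 70 d.

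The cytokines moved in opposite directions. Il1b was at 0.179, 0.26, 0.601 and 0.158 CPM in uninjured astrocyte libraries and at 24.8, 4.63, 7.27, 8.11 and 65.1 CPM at 2 d. Libraries 1 and 5 were far above the other three, and the mean of 22 CPM had an SD of 25.4. At 5 d the libraries were at 4.04, 7.14, 7.68 and 11.9 CPM and at 70 d at 1.2, 1.5, 2.86 and 2.9 CPM. The log2 fold change was 6.17 ± 0.84 at 2 d (adjusted p = 4.44e-07) and 2.82 ± 0.78 at 70 d (adjusted p = 0.0035). The 70 d call was lost without uninjured library 1, 2 or 4 or 70 d library 3 or 4 (adjusted p = 0.0101 to 0.0137), and the edgeR 4 form of the test lost the calls at 28, 42 and 70 d (adjusted p = 0.0113, 0.0217 and 0.0526). The summed level of 12 neutrophil markers in the 2 d astrocyte libraries was 1230, 460, 454, 560 and 703 CPM, highest in the same libraries 1 and 5, and in uninjured ones it was 121 to 500 CPM. Its part in the Il1b values was not tested.

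Il18 fell. It was at 45, 35.2, 37.4 and 39.9 CPM uninjured, at 18.3, 13.6, 15.4, 19.5 and 15.9 CPM at 2 d, at 16.5, 15, 14.8 and 19.9 CPM at 5 d and at 20.7, 21.3, 22.1 and 23.3 CPM at 70 d. No injured library reached the lowest uninjured one. The log2 fold change was −1.24 ± 0.11 at 2 d (adjusted p = 5.96e-11), −1.25 ± 0.12 at 5 d and −0.82 ± 0.12 at 70 d (adjusted p = 9.65e-07), and neither a library left out nor another test, scaling or filter ended a call, while the changes from 14 d on were under 2-fold. Over the same times 8 to 11 of the 12 astrocyte markers also fell, with medians between −2.02 at 5 d and −0.71 at 42 d.

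**Figure D1:**
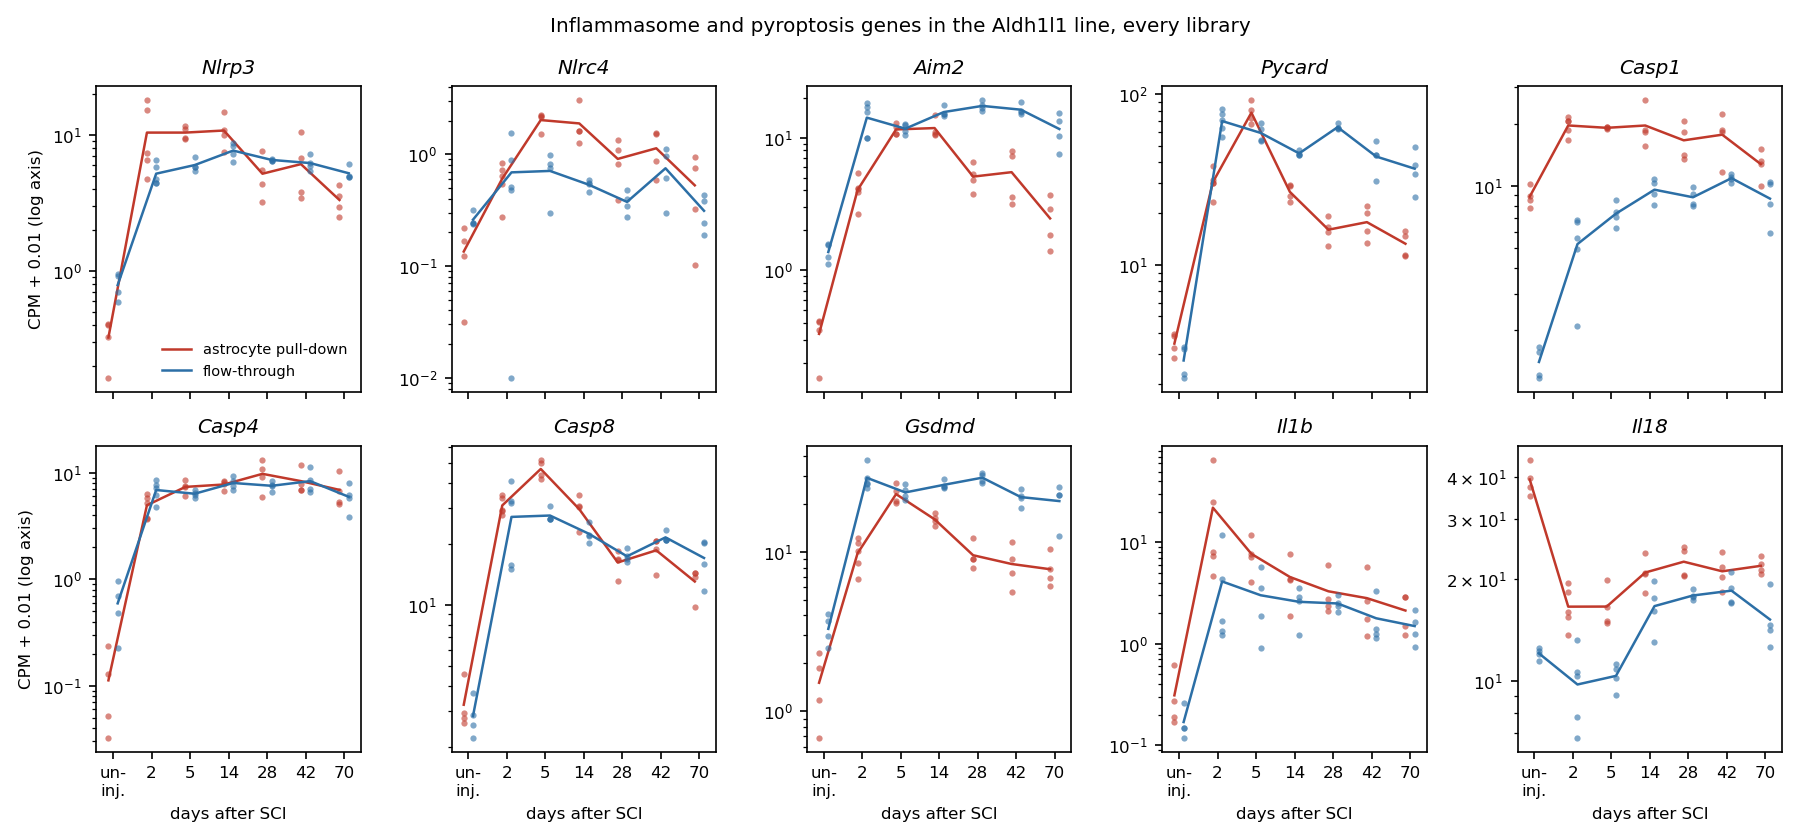
CPM plus 0.01 of each of the 10 genes on a log axis against group (uninjured and 2 to 70 d after SCI, evenly spaced and not to scale) in Aldh1l1 females; points are libraries and lines join group means, for astrocyte (red) and flow-through (blue) libraries. Il18 is the panel in which the astrocyte line falls, and in the Casp4 panel both lines stay near their 5 d level to 70 d.

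In flow-through, the RNA left after the pull-down, 8 of the 10 genes were higher at 2, 5, 14 and 70 d, 9 were higher at 28 and 42 d and none was lower. Of all genes, 65.6%, 49.6%, 44.1%, 48.9%, 44.6% and 37.6% were called at the 6 times and 32.6%, 27.7%, 24.6%, 26.4%, 25.3% and 21.8% were called higher. Pycard again moved far, from 2.16 to 3.3 CPM uninjured to 76.6, 56, 70.9, 81.6 and 63.5 CPM at 2 d (log2 fold change 4.69 ± 0.20). Gsdmd rose from 2.47 to 4.07 CPM to 25.2 to 38 CPM at 2 d (3.18 ± 0.18). Casp1, which rose about 2-fold in astrocyte libraries, rose from 1.17 to 1.65 CPM to 10.3 to 11.4 CPM at 42 d in flow-through (2.98 ± 0.25). Il18 stood at 11.4 to 12.5 CPM uninjured, was not called at 2, 5, 14 or 70 d (at 14 d 0.48 ± 0.16, adjusted p = 0.0108) and was called higher at 28 d (17.3 to 18.6 CPM, 0.56 ± 0.16, adjusted p = 0.00328) and 42 d (17 to 20.9 CPM, 0.64 ± 0.16, adjusted p = 0.00112). The 28 d call was lost without uninjured flow-through library 2 or 3 (adjusted p = 0.0116 to 0.0123) and with DESeq2's size factors (adjusted p = 0.0118), whose medians over all genes lay 0.114, 0.136, 0.112, 0.113 and 0.112 below those of TMM on the log2 scale at 2, 5, 14, 28 and 42 d. Under other settings the remaining times moved too. The 14 d change of Il18 was called by the edgeR 4 form of the test (adjusted p = 0.00653), with the 2 groups alone (adjusted p = 0.00188) and without 14 d library 1 (adjusted p = 0.00373), and its 2 d change was called lower by DESeq2 (−0.40, adjusted p = 0.00826). Nlrc4 was called at no time (adjusted p = 0.0474 to 0.75). The edgeR 4 form called it at 2, 5 and 42 d (adjusted p = 0.00612, 0.00607 and 0.00713), and without flow-through library 4, which held none of its reads, it was called at 2 d (adjusted p = 0.00117).

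The comparison of the 2 fractions asks in which of them a transcript was richer. The astrocyte-to-flow ratio is the log2 fold change of astrocyte over flow-through libraries of the same condition. Both fractions held astrocyte and pan-myeloid markers, so that the ratio does not by itself name the source cell. In uninjured mice Casp1 and Il18 were the genes higher in astrocytes and Aim2 was lower, so that 3 of 10 were called against 62.1% of all genes. Casp1 was at 7.81 to 10.2 CPM in astrocyte libraries and at 1.21, 1.65, 1.56 and 1.17 CPM in flow-through, a ratio of 2.63 ± 0.18 (adjusted p = 8.67e-08). Il18 was at 35.2 to 45 CPM against 12.5, 12, 11.4 and 12.2 CPM, a ratio of 1.69 ± 0.09 (adjusted p = 1.63e-08). Both lay below the 12 astrocyte markers, whose ratios ran from 4.10 to 6.64 with a median of 5.43. They lay inside the ranges of the 12 neutrophil markers (−0.68 to 3.68, median 2.69) and the 10 monocyte and macrophage markers (−1.46 to 3.27). They lay above the 8 microglia markers (−3.62 to 1.63) and the pan-myeloid markers. Which cells these transcripts came from was not tested. Aim2 was at 0.145 to 0.402 CPM against 1.1, 1.53, 1.25 and 1.57 CPM, a ratio of −2.11 ± 0.39 (adjusted p = 0.000449), inside the range of the pan-myeloid markers (−3.32 to −0.68, median −2.17). Nlrp3, Nlrc4, Casp4 and Gsdmd also lay in that range without a call. These calls depended on the setting. With the animal as a block Gsdmd was called (−1.26 ± 0.24, adjusted p = 0.00118), with DESeq2 or the edgeR 4 form Nlrp3, Casp4 and Gsdmd were all called lower, and Casp4 (−2.53 ± 0.75, adjusted p = 0.0103) was called without uninjured astrocyte library 2 or flow-through library 4 (adjusted p = 0.00369 to 0.00866).

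After injury the ratios did not all move the same way. At 2 d 5 genes were called against 55.7% of all genes. Casp1 (1.85 ± 0.27) and Il18 (0.71 ± 0.19, adjusted p = 0.00557) were higher in astrocytes and Aim2 (−1.87 ± 0.24), Pycard (−1.25 ± 0.14) and Gsdmd (−1.63 ± 0.18) lower. The Il18 call was lost without astrocyte library 1, 3, 4 or 5 or flow-through library 4 (adjusted p = 0.0102 to 0.0164). The ratio of Il1b at 2 d was 2.37 ± 0.85 (adjusted p = 0.026). Its 5 flow-through libraries were at 11.9, 1.22, 1.34, 4.38 and 1.67 CPM, and without flow-through library 1 the ratio was called (adjusted p = 0.00443).

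At 5 d 5 genes were called, all higher in astrocytes, against 64.4% of all genes, and this was the time at which all 10 ratios lay inside the pan-myeloid range (−0.47 to 2.25, median 0.68). Nlrp3 was at 9.34, 11.6, 11.1 and 9.4 CPM in astrocyte libraries and 5.83, 5.45, 5.78 and 6.87 CPM in flow-through (ratio 0.67 ± 0.12), and Nlrc4 at 1.5 to 2.21 CPM against 0.289 to 0.967 CPM (1.41 ± 0.31). Casp1 (1.26 ± 0.10), Casp8 (0.64 ± 0.09) and Il18 (0.56 ± 0.12) were the others. With the animal as a block Pycard (0.27 ± 0.05, adjusted p = 0.00028) and Il1b (1.42 ± 0.18, adjusted p = 4.37e-06) were also called. The Il1b values of libraries with the same number went together, since the flow-through libraries were at 0.888, 1.87, 3.54 and 5.69 CPM for astrocyte libraries at 4.04, 7.14, 7.68 and 11.9 CPM. The summed monocyte and macrophage markers were at 8280 to 9780 CPM in the 5 d astrocyte libraries and at 1230 to 1380 CPM in flow-through, and their part in the ratios was not tested. Over all libraries Gpnmb held by far the most counts of these 10 markers, 19329653, followed by Arg1 at 1415221. The study lists Gpnmb and F13a1, also among these markers, as raised and enriched in astrocytes after SCI.

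At 14 d 5 genes were called against 62.4% of all genes, namely Nlrc4 (1.73 ± 0.30) and Casp1 (0.93 ± 0.15) higher in astrocytes and Aim2 (−0.50 ± 0.12), Pycard (−0.85 ± 0.09) and Gsdmd (−0.82 ± 0.09) lower. The Aim2 call was lost without astrocyte library 3 or 4 or flow-through library 3 (adjusted p = 0.0104 to 0.0116), and with the animal as a block Casp8 (0.29 ± 0.09, adjusted p = 0.00992) and Il1b (0.66 ± 0.16, adjusted p = 0.00225) were called too. From 28 d on the genes lower in astrocytes were the same Aim2, Pycard and Gsdmd. The calls were 5 genes at 28 d (64.4% of all genes), 4 at 42 d (46.8%) and 3 at 70 d (45.7%). Pycard was at 15.6, 19.2, 12.8 and 16.6 CPM in astrocyte libraries at 28 d against 63.1, 62.2, 63.3 and 68.1 CPM in flow-through (−2.04 ± 0.11, adjusted p = 8.27e-09), and Gsdmd at 7.89 to 12.2 CPM against 27.3 to 31.5 CPM (−1.66 ± 0.13). Casp1 was higher in astrocytes at 28 d (0.88 ± 0.14) and 42 d (0.69 ± 0.17, adjusted p = 0.00514, lost without 6 of the 8 libraries in turn). Nlrc4 at 28 d (1.26 ± 0.45, adjusted p = 0.023) and Nlrp3 at 70 d (−0.70 ± 0.21, adjusted p = 0.0144) were not called, but were with DESeq2, with the edgeR 4 form and without astrocyte library 3 at 28 d (adjusted p = 0.00529) or library 2 at 70 d (adjusted p = 0.00671). At 70 d the Casp1 ratio of 0.51 ± 0.20 had an adjusted p of 0.047, or of 0.00666 with the animal as a block (0.53 ± 0.13). Il18 was called at 28 d (0.29 ± 0.09, adjusted p = 0.00976), a call that the animal block ended (adjusted p = 0.0212) as did 6 of the 8 libraries left out in turn and the fit with no count filter (adjusted p = 0.0107). At 70 d its ratio of 0.48 ± 0.14 (adjusted p = 0.013) was called with the block (0.49 ± 0.13, adjusted p = 0.00727), with DESeq2 (adjusted p = 0.00542) and without flow-through library 3 (adjusted p = 0.00281).

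The ratio of Casp4 in injured Aldh1l1 mice lay between −0.53 and 0.34 and was called at none of the 6 times, except at 28 d once astrocyte library 3 was left out (adjusted p = 0.00721), its 95% interval at 5 d being −0.16 to 0.35 and at 42 d −0.45 to 0.44. The pan-myeloid median over the same times went from −0.90 at 2 d to 0.68 at 5 d and −1.50 at 70 d, and Casp4 lay above the pan-myeloid range at 28, 42 and 70 d and inside it at 2, 5 and 14 d. It lay inside the wider range of the 8 microglia markers at all 6 times, and inside that of the 10 monocyte and macrophage markers at each time but 5 d, when it lay below. Against the astrocyte markers, every ratio tested lay below the lowest marker in each of the 9 conditions, with the exception of Casp1 and Il1b at 2 d, when the markers ran from 1.41 to 5.56.

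**Figure D2:**
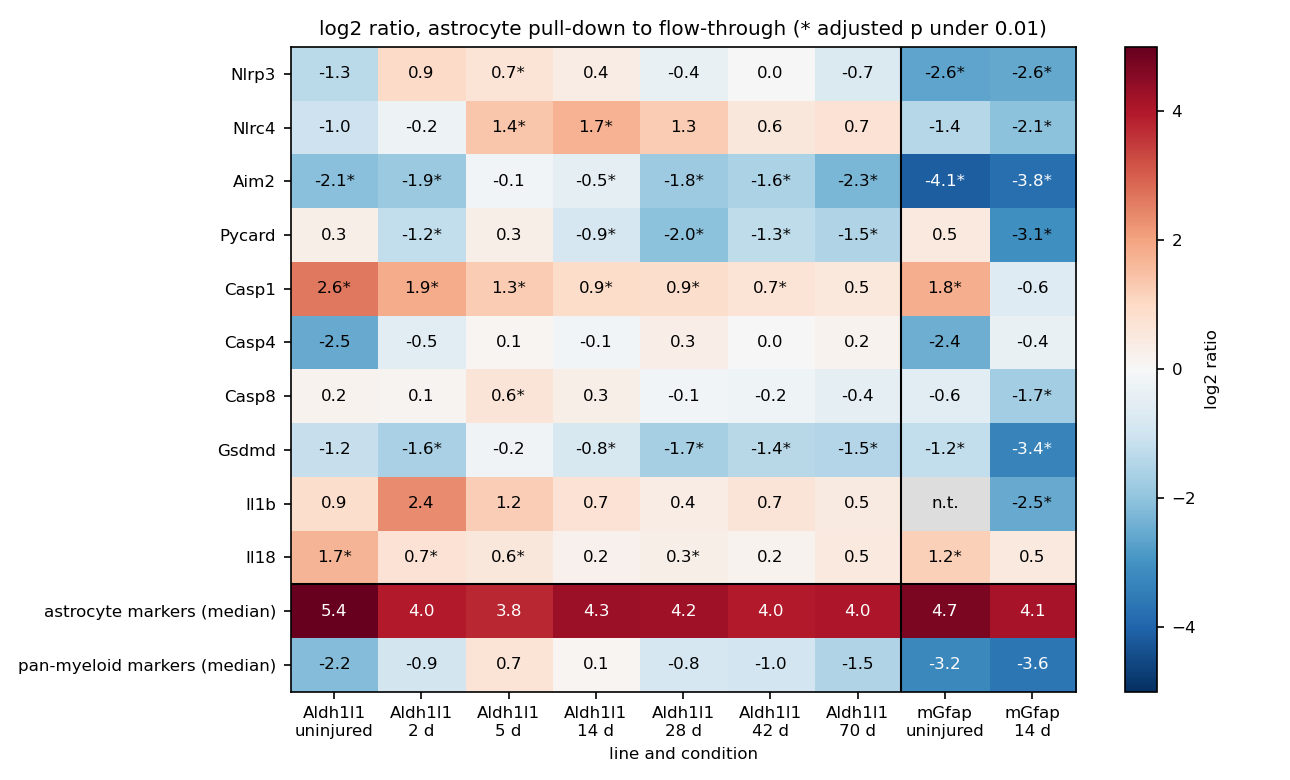
Log2 ratio of astrocyte over flow-through libraries for the 10 genes and for the medians of 12 astrocyte and 12 pan-myeloid markers (colour and printed value, asterisk for adjusted p below 0.01) in 7 Aldh1l1 and 2 mGfap conditions. Il1b was not tested (n.t.) in uninjured mGfap mice. Casp1 and Il18 are the genes called higher in astrocytes of uninjured mice in both lines, at 2.6 and 1.7 in Aldh1l1, against 5.4 for the astrocyte markers.

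Whether the ratio itself moved after injury was tested as the difference of the astrocyte and the flow-through change in one fit. Of all genes, 50.7%, 28.5%, 24.5%, 28.4%, 23.3% and 17.7% had a changed ratio at the 6 times in order, and the genes described here numbered 4, 6, 7, 4, 4 and 4. The ratio of Casp4 rose at all 6 times, by 2.21 ± 0.47 at 2 d (adjusted p = 7.02e-05) to 2.97 ± 0.49 at 28 d, and that of Il18 fell at all 6, by 0.77 ± 0.19 at 2 d to 1.43 ± 0.20 at 42 d (adjusted p = 4.5e-08). Casp1 fell relative to flow-through from 5 d on, by 1.15 ± 0.29 at 5 d to 2.03 ± 0.29 at 70 d. Pycard fell at 2 d (by 1.34 ± 0.24) and again from 14 to 70 d, by 2.24 ± 0.25 at 28 d, while at 5 d its value was 0.20 ± 0.25. Nlrp3 rose from 2 to 14 d, by 2.49 ± 0.43 at 2 d and 1.88 ± 0.44 at 14 d. At 42 d its value of 1.38 ± 0.44 (adjusted p = 0.0123) was called with DESeq2 (adjusted p = 0.00515), with no count filter (adjusted p = 0.0088) and without uninjured flow-through library 1 or 42 d astrocyte library 2 or 4 (adjusted p = 0.0039 to 0.00901). Aim2 rose at 5 d (2.19 ± 0.39) and 14 d (1.78 ± 0.39), and Gsdmd at 5 d (1.22 ± 0.32). Nlrc4 was called at 14 d (2.92 ± 0.89, adjusted p = 0.00793), which was lost without 12 of the 16 libraries in turn, and at 5 d (2.64 ± 0.88, adjusted p = 0.0143) with the animal as a block (2.94 ± 0.84, adjusted p = 0.00554), with DESeq2, with the edgeR 4 form or without uninjured astrocyte library 3 (adjusted p = 0.00945). DESeq2 also called its 28 d value (2.42 ± 0.81, adjusted p = 0.00883). The median over all genes was 0.297, 0.194, 0.131, 0.101, 0.041 and 0.069 at the 6 times, and with DESeq2's size factors it lay 0.133 lower at 2 d and 0.107 lower at 5 d. The directions above were the same under both.

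Across the 25 injured female Aldh1l1 astrocyte libraries, the genes differed in how closely they followed the summed pan-myeloid markers. As a description on the log2 scale, with time and depth shared by the libraries of a group, Pearson's r was 0.97 for Aim2, 0.91 for Gsdmd, 0.85 for Nlrc4, 0.76 for Pycard and 0.74 for Casp8. It was 0.65 for Nlrp3 and 0.57 for Casp1. Casp4 had 0.43, Il1b 0.26 and Il18 −0.23. The pan-myeloid sum was 1480 to 2920 CPM at 2 d, 5300 to 7730 CPM at 14 d and 845 to 2190 CPM at 70 d, a range over which Casp4 stayed between 3.65 and 13.2 CPM and Aim2 went from 1.39 to 14.9 CPM.

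**Figure D3:**
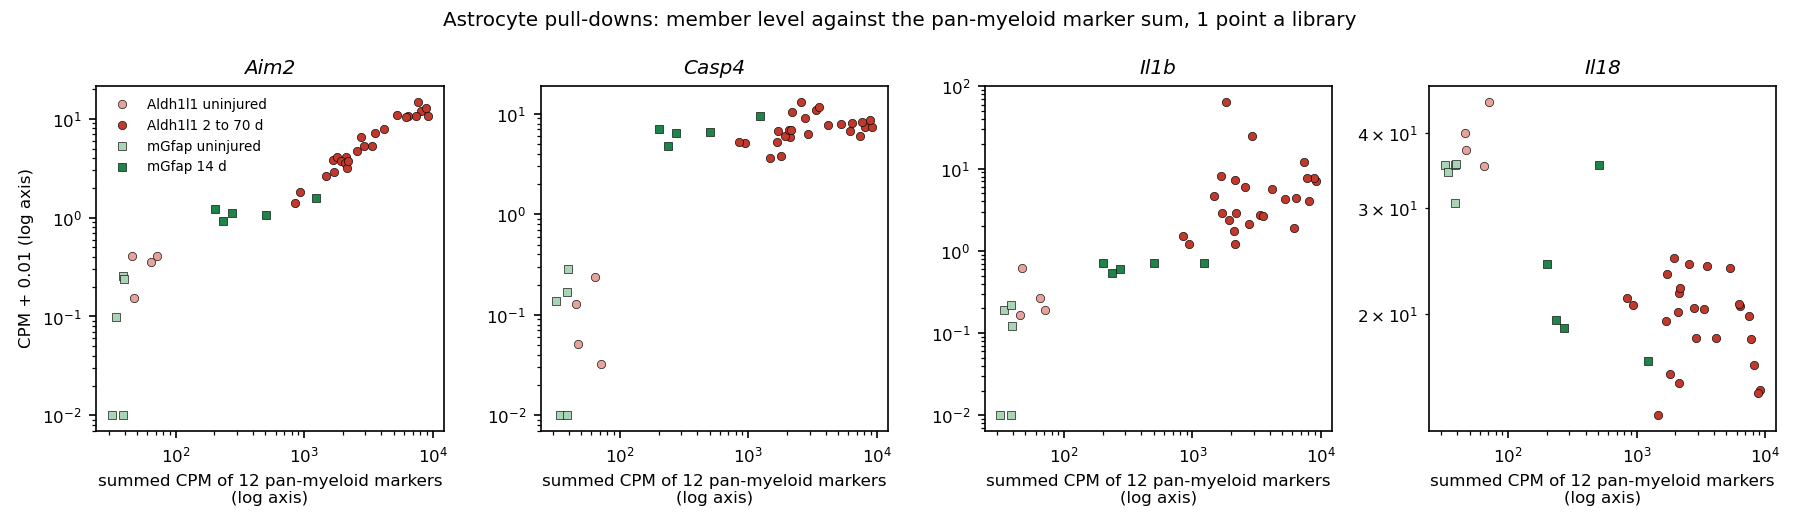
CPM plus 0.01 of Aim2, Casp4, Il1b and Il18 against the summed CPM of 12 pan-myeloid markers, both on log axes, with 1 point for each female Aldh1l1 astrocyte library (circles) and each P63 or 14 d mGfap one (squares). Aim2 climbs with the marker sum, while Casp4 lies at 4.76 to 9.53 CPM in the 5 injured mGfap libraries, 4 of which have marker sums of 202 to 505 CPM, below the lowest injured Aldh1l1 library at 845 CPM.

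The mGfap line gives a second set of astrocyte libraries with lower pan-myeloid marker sums and, at 14 d, higher sums of oligodendrocyte markers. Their astrocyte marker sum was 56400 to 65000 CPM at P63 and 26800 to 45300 CPM at 14 d. In Aldh1l1 astrocyte libraries at 14 d it was 44300 to 53600 CPM. At P63 the pan-myeloid sum was 32 to 39.4 CPM, and at 14 d it was 505, 202, 274, 1230 and 235 CPM, against 5300 to 7730 CPM in Aldh1l1 at the same time. The neutrophil sum at 14 d was 2.95 to 44.1 CPM against 112 to 228 CPM in Aldh1l1. Oligodendrocyte markers moved as well, from 9340 to 13100 CPM at P63 to 25200 to 38500 CPM at 14 d. At that time they were at 1950 to 2610 CPM in Aldh1l1 astrocyte libraries and at 10700 to 16900 CPM in mGfap flow-through. Markers of oligodendrocyte progenitor cells at 14 d were at 523 to 790 CPM in mGfap and at 160 to 198 CPM in Aldh1l1 astrocyte libraries. Stromal markers went from a median of 55.5 CPM at P63 to one of 593 CPM at 14 d, and ependymal markers from 103 to 117 CPM to 209 to 310 CPM, in neither case with overlap. The part of these cell types in the results was not tested.

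In mGfap astrocytes at 14 d, 8 of the 10 genes were called higher than at P63 and none lower, against 44.2% of all genes called and 27.7% called higher, with a median over all genes of 0.169. Casp4 rose from 8, 0, 0, 22 and 10 reads at P63, which is at most 0.277 CPM, to 6.59, 7.03, 6.45, 9.53 and 4.76 CPM, a log2 fold change of 6.0 ± 0.62 (adjusted p = 2.37e-07). Casp8 went from 1.42 to 2.62 CPM to 8.94, 5.72, 7.08, 10.6 and 6.45 CPM (2.06 ± 0.21). Gsdmd went from 0.746 to 1.07 CPM to 2.5 to 4.85 CPM (2.12 ± 0.27) and Aim2 from 0 to 0.245 CPM to 0.919 to 1.56 CPM (3.42 ± 0.54). For these 4 genes the groups did not overlap, and no alternative run ended the calls. Nor did the groups overlap for Pycard (4.55 to 9.74 CPM against 3.24 to 3.92 CPM) and Il1b (0.525 to 0.711 CPM against 0 to 0.207 CPM). The calls of Nlrp3 (3.17 ± 0.69), Pycard (0.91 ± 0.20), Casp1 (0.63 ± 0.17) and Il1b (2.79 ± 0.66) were lost when the 2 groups were fitted alone (adjusted p = 0.0135, 0.0119, 0.0334 and 0.0169) and when the labelled sex was a covariate (adjusted p = 0.0329, 0.0187, 0.0237 and 0.0578), the P63 group holding 3 males and the 14 d group none. The Casp1 call was also lost without 14 d library 2 or P63 library 1, 3 or 4 (adjusted p = 0.0107 to 0.0131) and under the stricter count filter (adjusted p = 0.022). Nlrp3 was at 1.69, 0.477, 0.74, 2.49 and 0.271 CPM at 14 d and overlapped the P63 range of 0 to 0.318 CPM. Library 4 of the 14 d group, with the highest pan-myeloid sum, had the highest level of Nlrp3, Aim2, Pycard, Casp4 and Casp8. Il18 was at 35.4, 24.2, 19, 16.7 and 19.6 CPM against 30.6 to 35.5 CPM at P63, a log2 fold change of −0.47 ± 0.15 (adjusted p = 0.0128) that missed the threshold. It was called without 14 d library 1 (adjusted p = 1.66e-05), with DESeq2's size factors (−0.54, adjusted p = 0.00605), under the stricter filter and with DESeq2 (both adjusted p = 0.00227), and with the replicate number as a block (adjusted p = 0.00283).

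In mGfap flow-through 9 of the 10 genes were higher at 14 d than at P63, with 66% of all genes called and 33.6% called higher. Gsdmd was at 31.2, 23.2, 37.3, 49.5 and 34.4 CPM against 1.26 to 2.32 CPM, a log2 fold change of 4.17 ± 0.21, and Pycard changed by 4.37 ± 0.24. Nlrc4 was called here (0.62 to 1.44 CPM against 0.225 to 0.355 CPM, 1.74 ± 0.26, adjusted p = 6.93e-06). Il18 was not (0.18 ± 0.10, adjusted p = 0.118). Flow-through library 4 was highest for all 10 genes and had the highest pan-myeloid sum, 9400 CPM, of the 5.

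The astrocyte-to-flow comparison in this line placed 7 of the 10 genes lower in astrocytes at 14 d and none higher, against 46.9% of all genes called and 23.6% called lower. The ratios were −3.79 ± 0.23 for Aim2, −3.36 ± 0.26 for Gsdmd, −3.07 ± 0.28 for Pycard, −2.57 ± 0.55 for Nlrp3, −2.53 ± 0.36 for Il1b, −2.06 ± 0.40 for Nlrc4 and −1.73 ± 0.20 for Casp8. Those of Casp4 (−0.36 ± 0.22, adjusted p = 0.185), Casp1 (−0.64 ± 0.25, adjusted p = 0.0462) and Il18 (0.47 ± 0.20, adjusted p = 0.0604) were not called. The pan-myeloid markers ran from −4.58 to −2.27 and the astrocyte markers from 2.97 to 6.02, so that Casp4, Casp1, Casp8, Nlrc4 and Il18 lay between these 2 sets. All 10 genes lay inside the wider range of the 8 microglia markers (−4.18 to 1.36). At P63 Casp1 (1.83 ± 0.22) and Il18 (1.21 ± 0.08) were again higher in astrocytes and Nlrp3, Aim2 and Gsdmd lower, 5 of the 9 genes tested against 67.8% of all genes. Casp4 (−2.43 ± 0.84, adjusted p = 0.0173) was called by DESeq2, by the edgeR 4 form and without P63 astrocyte library 4. Il1b did not pass the filter there, and the Nlrp3 call was lost without P63 astrocyte library 4 or flow-through library 2 or 4 (adjusted p = 0.0101 to 0.0135).

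Set side by side at 14 d, 8 of the 10 genes were lower in mGfap than in Aldh1l1 astrocytes, against 23.3% of all genes called and 11.4% called lower. Aim2 was lower by 3.27 ± 0.49 on the log2 scale, at 0.919 to 1.56 CPM against 11, 14.9, 10.7 and 10.5 CPM, and Nlrp3 by 3.17 ± 0.63, at 0.271 to 2.49 CPM against 7.42 to 14.6 CPM. Nlrc4 differed by −2.97 ± 0.79 (adjusted p = 0.00673), which was lost with the replicate number as a block (adjusted p = 0.0241) and without 7 of the 9 libraries in turn. Il1b differed by −2.75 ± 0.61, Gsdmd by −2.12 ± 0.27, Pycard by −2.0 ± 0.20, Casp8 by −1.87 ± 0.21 and Casp1 by −1.27 ± 0.18. The Il1b call was lost without Aldh1l1 14 d library 2 (adjusted p = 0.0131). Casp4 was at 4.76 to 9.53 CPM in mGfap and at 7.89, 8.31, 8.11 and 6.68 CPM in Aldh1l1, a difference of −0.11 ± 0.49 with a 95% interval of −1.07 to 0.85. Il18 differed by 0.20 ± 0.16 (95% interval −0.12 to 0.51).

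In uninjured mice Casp1 was the one gene called between the lines, lower in mGfap (4.65 to 7.35 CPM against 7.81 to 10.2 CPM, −0.75 ± 0.18, adjusted p = 0.00528), against 12.4% of all genes. That call was lost with the labelled sex as a covariate (adjusted p = 0.0456) and without 7 of the 9 libraries in turn (adjusted p = 0.012 to 0.0353). The change at 14 d itself differed between the lines for Pycard, smaller in mGfap by 2.06 ± 0.29 on the log2 scale (adjusted p = 4.77e-05), which is 1 of 10 genes against 12.7% of all genes. Casp8 had −1.16 ± 0.31 (adjusted p = 0.0102), called with DESeq2's size factors, under the stricter count filter, with DESeq2 and without 8 of the 18 libraries in turn, and Gsdmd −1.30 ± 0.39 (adjusted p = 0.0222), called with DESeq2 and without uninjured Aldh1l1 library 1 or mGfap 14 d library 1 (adjusted p = 0.00615 to 0.00993). For Casp4 the difference of the changes was −0.24 ± 0.87 (95% interval −1.94 to 1.47). Of all genes called in this comparison 60.9% were higher in mGfap with TMM and 49.0% with DESeq2's size factors.

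**Figure D4:**
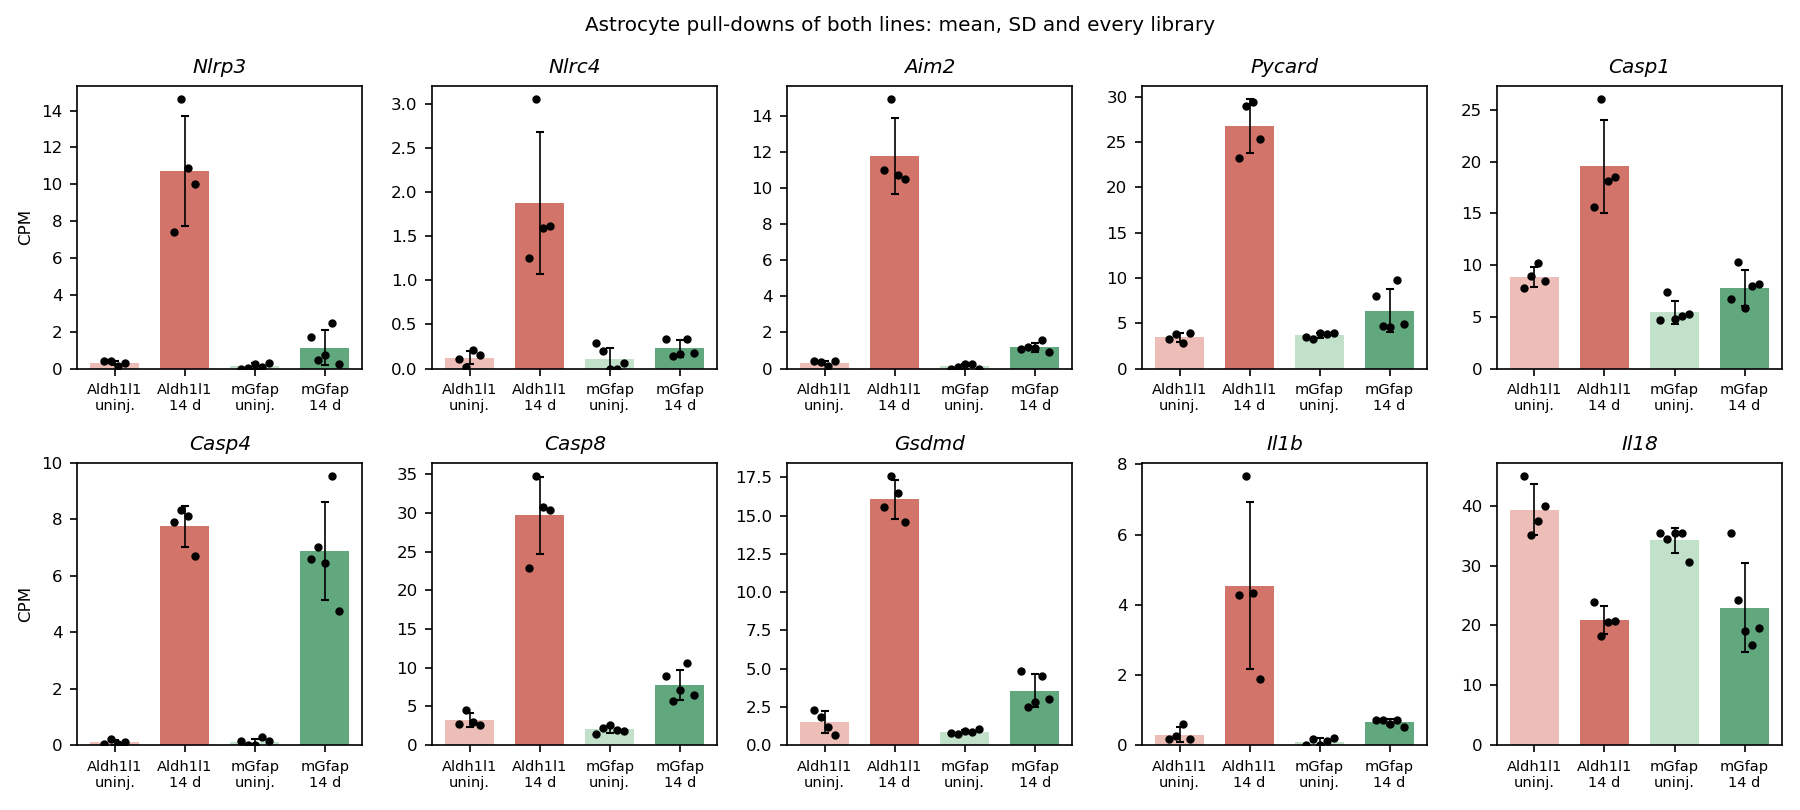
CPM of each gene, on linear axes from 0, in uninjured and 14 d astrocyte libraries of the Aldh1l1 and mGfap lines, with 1 point for each library, bars at the group mean and error bars of 1 SD. At 14 d the mGfap points sit below the Aldh1l1 points for Nlrp3, Nlrc4, Aim2, Pycard, Casp1, Casp8, Gsdmd and Il1b. They sit among them for Casp4 and Il18.

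In uninjured mGfap astrocytes from P0 to P63, 3 of the 10 genes changed, against 50.2% of all genes. Casp1 rose from 1.38, 1.18, 2.77 and 0.885 CPM at P0 to 4.65, 7.35, 4.74, 5.05 and 5.29 CPM at P63 (log2 fold change 1.80 ± 0.37, adjusted p = 0.000145). Il18 rose from 13.9, 19.2, 8.69 and 18.2 CPM to 35.4, 34.4, 35.4, 35.5 and 30.6 CPM (1.19 ± 0.15, adjusted p = 9.06e-08). Its levels passed through 26.4 to 29.3 CPM at P7 and 33.6 to 37 CPM at P14 and were lower again at P21, at 24.2 to 27.2 CPM. Casp8 fell from 6.77, 5.77, 8.41 and 6.88 CPM to 1.42, 2.18, 2.62, 2 and 1.85 CPM (−1.79 ± 0.22, adjusted p = 8.17e-08), most of it between P7 (6.01 to 8.03 CPM) and P21 (1.89 to 2.58 CPM). Pycard was at 0.819 to 7.14 CPM at P0 and at 3.24 to 3.92 CPM at P63. Nlrp3, Nlrc4, Aim2 and Casp4 stayed at or below 1.43 CPM in every library of this series of ages. Gsdmd lay between 0.0458 and 1.38 CPM at all ages and was not called (0.11 ± 0.59). Il1b had 2, 0, 0 and 0 reads at P0, at or under the floor of 3 counts, and 0, 12, 0, 9 and 13 reads at P63, so that no fold is given. The P0 mice were all male, so that age and sex cannot be told apart between P0 and the 2 females of P63. In the 3 P63 males, whose values are listed first, Casp1, Il18 and Casp8 also lay outside their P0 ranges.

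**Figure D5:**
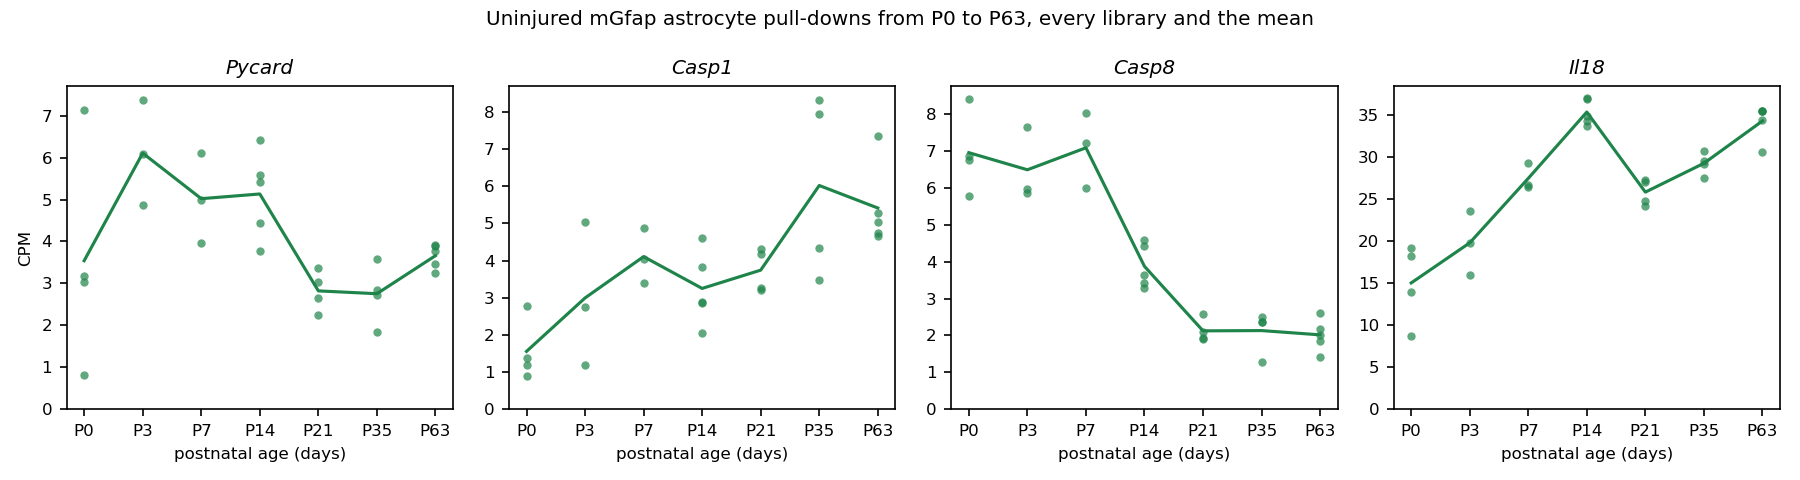
CPM of Pycard, Casp1, Casp8 and Il18 against age, evenly spaced from P0 to P63, in uninjured mGfap astrocyte libraries; points are libraries and lines join the means. Casp8 falls between P7 and P21 and Il18 peaks at P14, at 33.6 to 37 CPM, before a dip at P21.

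Males and females were compared in Aldh1l1 astrocytes at 5 and 14 d after SCI with time as a covariate. None of the 10 genes differed by edgeR (adjusted p = 1) or by DESeq2, and 0.0510% of all genes did. Of all 17639 genes 583 had an unadjusted p under 0.05, and Nlrp3 was among them (−0.34 ± 0.15 in males, 95% interval −0.64 to −0.05). At 14 d its males were at 4.57, 7.28, 7.72 and 6.94 CPM against 7.42, 14.6, 10.9 and 10 CPM in females. The interval for Casp4 was −0.12 to 0.24 and for Il18 −0.23 to 0.18.

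Other genes of the pathway were followed as a list of 51, of which 50 were tested. In Aldh1l1 astrocytes 43 were higher and 2 lower at 2 d (median 2.53). At 5 d 39 were higher and 2 lower (median 2.79), and at 70 d 34 were higher and 4 lower (median 2.17). Of all genes tested, 60.1%, 56.8% and 45.3% were called at 2, 5 and 70 d, and 30.2%, 28.7% and 23.9% were called higher. At 2 d all 11 priming and trigger genes, such as Tlr4 and Myd88, were higher, as were 12 of 15 sensors and partners, 5 of 5 IL-1 family ligands and decoys, 6 of 7 receptors, 5 of 6 caspase-8 and necroptosis partners and 4 of 6 tested genes of membrane rupture and other gasdermins. The largest rises were of 2 genes whose products hold IL-1 signalling back. Il1rn, the receptor antagonist, went from 0.116 ± 0.0676 CPM uninjured to 27.7 ± 10.2 CPM (log2 fold change 7.90 ± 0.57), and Il1r2, a receptor that does not signal, from 0.182 ± 0.0654 CPM to 39.3 ± 15.5 CPM (7.78 ± 0.47). The genes that fell at 2 d were Nod1, a sensor of bacterial peptidoglycan (−0.81 ± 0.16), and Nek7, a kinase that NLRP3 needs to assemble (−0.65 ± 0.08, from 118 ± 7.87 CPM to 74.8 ± 5.26 CPM). In mGfap astrocytes at 14 d 31 of the list were higher and 2 lower, against 44.2% of all genes called and 27.7% called higher. Among those higher were 6 of 15 sensors and partners and 10 of 11 priming genes.

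As a description of likeness, group means of log2 CPM were correlated over the 14 groups of Aldh1l1 females across 18858 genes. The nearest to Nlrp3 were Ncf4, Sla and Arhgap30 (r of 0.995, 0.99 and 0.985), to Aim2 Cd37 (0.989), to Gsdmd A630001G21Rik, Hlx and Sp110 (0.992, 0.991 and 0.987), to Casp8 Lilr4b (0.988) and to Pycard Frrs1 (0.975). Nlrc4 was nearest to Pik3ap1 (0.944) and Casp1 to Mocos (0.955). Casp4 was nearest to Nupr1, Bcl2a1b and Sh2d1b1 (0.969, 0.968 and 0.964), Il1b to Sap30 and Clec4e (0.969 and 0.965), and Il18 to Peli2, Rasd1 and Agmo (0.964, 0.939 and 0.935). Fraction and injury are shared by all of these values.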

How the data were processed

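RNA immunoprecipitated with tagged ribosomes (astrocyte libraries) and RNA left in the supernatant (flow-through) were sequenced from mouse spinal cord as poly-A selected, paired-end libraries. Trimmomatic, HISAT2 with the mm10 genome and featureCounts (versions not given in the sources used here) were used by the authors, who deposited raw read counts per gene. Files were joined on Entrez identifiers, since 18 of them list the genes in another order, and 25275 of 27179 identifiers were named from RefSeq. Depth was 40710428 to 136008399 counts a library. CPM used TMM-scaled library sizes over all 117 libraries, and RPKM divided it by annotated exon length. Intervals of 95% are 1.96 SE of the fit on either side and so hold the spread between libraries, whereas the floor of 3 counts covers counting error only.

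Tests were edgeR 4.0.16 quasi-likelihood tests (legacy=TRUE, robust=TRUE) in R 4.3.3 after filterByExpr, over all genes, with Benjamini-Hochberg adjusted p below 0.01. Changes with time were fitted over all groups of a fraction, and the 2 fractions were compared within a condition and, for ratio changes, in one fit with interaction terms. Replicates were taken as separate mice. Alternatives were DESeq2's size factors in edgeR, no count filter, a stricter filter (each library of some group at 10 counts or above), DESeq2 1.42.0, edgeR 4's newer form of the test (legacy=FALSE), a replicate or animal block, the 2 groups alone, sex as a covariate, other thresholds and each library left out. The fitting code was tested on simulated data.

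Astrocyte and flow-through libraries of the same number were taken to come from the same mouse, although the labels name no pairing. Of 39 such pairs, 26 deviated together from their group means with r over 0.1 (−0.04 to 0.596, median 0.136), and 31 correlated best with their own partner. In Aldh1l1 mice r ran from −0.04 to 0.091 at 2 d and from −0.014 to 0.054 at 28 d. The pairing is least certain at these times, and so are the blocked values. Blocked values are given where they change a call.

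The genes and lists were chosen with earlier results of these data known. All 10 genes are named, pathway genes are counted and the 2 called at 2 d with the largest change each way are named, and for likeness up to 3 genes with the highest r per gene. Promoter windows came from RefSeq GRCm38.p6, the assembly of mm10.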

Additional observations from a re-analysis of the deposited data

Results flagged for a closer look

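Over all groups of 4 or 5 libraries, examined gene by gene, 22 sets, or 8.53% of those checked, held a library far from the others in its group. Chance gives about 1 in 20, or 12.9 sets, but the sets share libraries and are not independent. Among the sensors these were Nlrp3 in 70 d flow-through library 1 (6.08 CPM) and mGfap 14 d flow-through library 4 (10.9 CPM), Nlrc4 in uninjured flow-through library 3 (0.306 CPM) and 5 d astrocyte library 3 (1.5 CPM), and Aim2 in 14 d astrocyte library 2 (14.9 CPM), 14 d flow-through library 3 (17.7 CPM), P0 library 2 (0.562 CPM) and P14 library 4 (0.545 CPM). Pycard stood apart in 14 d flow-through library 3 (47 CPM) and P63 flow-through library 4 (4.17 CPM).

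Among the caspases, Casp1 stood apart in P63 astrocyte library 2 (7.35 CPM). Casp8 did so in uninjured astrocyte library 2 (4.57 CPM), 5 d flow-through library 1 (30.8 CPM), male 14 d astrocyte library 1 (22.3 CPM), 42 d flow-through library 1 (23.5 CPM), 70 d astrocyte library 1 (9.78 CPM) and P35 library 4 (1.28 CPM). Gsdmd did so in male 5 d flow-through library 3 (30.7 CPM) and 14 d flow-through library 2 (29 CPM). Of the cytokines, Il1b did so in 28 d astrocyte library 1 (5.93 CPM) and 42 d flow-through library 3 (3.31 CPM), and Il18 in P63 astrocyte library 5 (30.6 CPM).

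Changes that differed between astrocytes and flow-through, by edgeR's interaction test, are log2 differences of the astrocyte and the flow-through change. In order from 2 to 70 d, Casp4 had 2.21, 2.85, 2.55, 2.97, 2.61 and 2.8. Nlrp3 had 2.49 at 2 d, 2.22 at 5 d and 1.88 at 14 d, Aim2 2.19 at 5 d and 1.78 at 14 d, Gsdmd 1.22 at 5 d and Nlrc4 2.92 at 14 d. Il18 had −0.77, −0.9, −1.29, −1.3, −1.43 and −1.12 in the same order. Casp1 had −1.15, −1.54, −1.66, −1.87 and −2.03 from 5 d on. Pycard had −1.34 at 2 d and then −0.99, −2.24, −1.51 and −1.72 from 14 d on. Between the lines, the 14 d change of Pycard was smaller in mGfap astrocytes, with a difference of −2.06.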

How the results depend on the processing

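Of the counts of genes called in 34 comparisons, those between uninjured astrocytes and flow-through moved from 3 of the 10 genes to 5 with DESeq2's size factors and to 6 with DESeq2, with the edgeR 4 form of the test or at an adjusted p below 0.05. At 70 d the same comparison moved from 3 to 5 with DESeq2 or the animal as a replicate block and to 6 at 0.05. The difference between the lines in the 14 d change moved from 1 gene to 2 with DESeq2's size factors or the stricter filter, to 3 with DESeq2 or at 0.05, and to 1 to 3 with each library left out. The mGfap 14 d count fell from 8 to 4 when the 2 groups were fitted alone or labelled sex was a covariate. The uninjured lines moved from 1 gene to 0 with sex as a covariate or a 2-fold minimum, to 3 at 0.05, and to 0 to 1 with each library left out. A 2-fold minimum took the astrocyte and flow-through counts from 5 to 2 at 5 d, to 1 at 14 d and to 3 at 28 d. Leaving out libraries gave 3540 values for single genes, of which 70 lost a call, 36 gained one and 0 changed sign.

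Mice of different groups share only a replicate number. Of 48 such pairs 7 had r over 0.1 (−0.14 to 0.254, median −0.002), and 14 of them correlated best with their own number. With that number as a replicate block no count of calls moved by over 1.5 times. For single genes it lost Nlrc4 between the lines at 14 d (−2.91, adjusted p = 0.0241) and gained Il18 at 14 d in mGfap (−0.50, adjusted p = 0.00283) by edgeR. Depth limits Nlrc4, Casp4 and Il1b in uninjured libraries, where single libraries held few or no reads.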

Other observations

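At 5 d the male Aldh1l1 astrocyte libraries had Pycard at 64, 58.6, 130 and 89.8 CPM and Gsdmd at 21.4, 19.1, 37.8 and 26.6 CPM, male 3 being highest for both. The pan-myeloid sums of the 5 d males ran from 6450 to 10800 CPM, against 7450 to 9170 CPM in females. Casp4 stood at 7.69, 7.43, 8.14 and 7.01 CPM in the same males and Il18 at 20.1, 16.8, 11.2 and 14.6 CPM.

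In male flow-through, which no comparison above used, Pycard was at 59.8, 52.6, 78 and 64.1 CPM at 5 d and at 35.2, 42.1, 45.5 and 44 CPM at 14 d. Casp1 was at 6.08 to 7.46 CPM at 5 d and at 8.29 to 10.1 CPM at 14 d, so that the astrocyte libraries of the same males, at 15.8 to 18.8 CPM and 16.7 to 23.8 CPM, stood above all of them. Casp4 was at 5.48 to 6.37 CPM at 5 d in male flow-through and at 7.01 to 8.14 CPM in male astrocytes.

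The mGfap flow-through at 14 d held a neutrophil marker sum of 60.5 to 1020 CPM over its 5 libraries, while its astrocyte libraries held 2.95 to 44.1 CPM. Il1b in those flow-through libraries was at 3.66, 2.3, 2.75, 7.35 and 2.02 CPM.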
